A study of Arabidopsis thaliana with 12 samples.

Results

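The 1916 alternative 3′ splice sites (acceptors) described here are sites at which an intron can end in germinated seeds of Arabidopsis thaliana, each lying more than 3 bases, and a multiple of 3 bases, upstream of the most downstream acceptor listed for the same splicing event. They were chosen by 3 conditions on the deposited splicing table: a length of added exon sequence over 3 and divisible by 3, at least 10 reads for the event in each of the 12 libraries, and a mean percent spliced in (PSI) from 2 to 98. PSI is the percent of an event's reads that use the site. Of 116702 alternative acceptors listed in the table, 20977 had such a length, 18447 of these also had the reads, and 1916 in 1661 events and 1511 genes met all 3 conditions. Read number and mean PSI thus chose the members and are given below as a description only. The PSI limits fell within a continuous range: at the lower limit an acceptor of AT2G23430 with a mean PSI of 2.01 was inside and 1 of AT3G54480 with 1.998 was outside, and at the upper limit an acceptor of AT3G45300 with 97.99 was inside and 1 of AT5G11790 with 98.003 was outside.

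The study asked how loss of SR34A, a serine/arginine-rich (SR) splicing factor, alters RNA in seedlings exposed to the stress hormone abscisic acid (ABA). The groups were the mutant line sr34a-1 with ABA, wild type Col-0 with ABA, sr34a-1 without hormone (mock) and Col-0 without hormone, with 3 biological replicate libraries each. All seeds had been stratified, had germinated for 44 h on MS medium in continuous white light, and spent a further 2 h on medium with 0.5 µM ABA or on the same medium without it. The libraries hold polyadenylated RNA of whole seedlings, so that cell types cannot be told apart, and sr34a-1 is 1 mutant line. SR34A RNA was at 12.7 ± 1.28 CPM (read counts scaled to library size) in sr34a-1 against 93.3 ± 3.47 CPM in WT with ABA, and at 13.2 ± 0.712 CPM in sr34a-1 against 96.2 ± 4.30 CPM in WT without it (SD, n = 3 libraries in each group). Total gene counts ranged from 61128187 to 83268758 per library, and the median member had 101 to 138 reads per library.

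An intron ends at an AG dinucleotide that usually follows a stretch rich in pyrimidines. The branch point is bound by SF1, the pyrimidine stretch by the large U2AF subunit and the AG by the small one, and SR proteins bound to nearby exon sequence can favour one site over its neighbour. Where 2 acceptors of an intron lie a multiple of 3 bases apart, the choice between them inserts or removes whole codons, unless the added stretch holds a stop codon.

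The stretches below are shown because the results on use, reading frame and genotype turn on them. Each runs 5′ to 3′ on the gene's strand and was read from the RefSeq TAIR10.1 sequence. The bases in capitals are the exon sequence gained when the upstream acceptor of the pair is used, and the lower-case bases before and after them are the last 30 bases of the intron and the first 12 bases of the exon common to both forms. The SR45 stretch lies at chr1:5677344-5677406 on the minus strand, HAB2 at chr1:6035781-6035870 on the plus strand, ECT4 at chr1:20720540-20720620 on the plus strand and LUH at chr2:13870087-13870134 on the plus strand. The SR34A stretch lies at chr3:18333888-18333941 on the plus strand, AT4G26650 at chr4:13445386-13445460 on the plus strand, BTR1 at chr5:1251490-1251594 on the minus strand and TTL at chr5:23554929-23555009 on the minus strand. All 8 lie within the annotated coding bounds of their genes.
SR45: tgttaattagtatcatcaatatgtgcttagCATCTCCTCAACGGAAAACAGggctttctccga
HAB2: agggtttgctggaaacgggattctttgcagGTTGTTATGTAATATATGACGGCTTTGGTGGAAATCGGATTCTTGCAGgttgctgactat
ECT4: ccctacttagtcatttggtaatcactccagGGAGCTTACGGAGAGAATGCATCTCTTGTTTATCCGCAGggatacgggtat
LUH: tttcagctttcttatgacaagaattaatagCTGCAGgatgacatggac
SR34A: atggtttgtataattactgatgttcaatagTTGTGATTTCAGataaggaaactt
AT4G26650: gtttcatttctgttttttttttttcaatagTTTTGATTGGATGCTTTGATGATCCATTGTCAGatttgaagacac
BTR1: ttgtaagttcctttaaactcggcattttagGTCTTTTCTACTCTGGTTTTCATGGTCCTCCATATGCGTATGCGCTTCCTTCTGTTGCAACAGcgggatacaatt
TTL: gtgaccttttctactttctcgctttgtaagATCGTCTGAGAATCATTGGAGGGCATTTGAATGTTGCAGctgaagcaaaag

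Short distances were the most frequent. Of the 1916 acceptors, 305 lay 6 bases, 224 lay 9 bases and 134 lay 12 bases upstream of the first site, the median was 24 bases and the largest distance 486 bases, in AT5G16880. Lengths up to 30 bases were held by 1115 members (58.2%) and lengths over 99 bases by 214 (11.2%). Lengths divisible by 3 were not in excess: among all tested acceptors more than 3 bases from the first site they made up 1916 of 6350 (30.2%), which was 28.3% of those with lengths up to 30 bases, 32.4% of those with 31 to 99 and 35.4% of those over 99. Among all acceptors with reads in every library, whatever their PSI, the share was 31.8% of 57927.

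The name "frame-keeping" held for about 2 in 3 of the acceptors when each was set against the site it competes with. In 1910 members every site of the event was listed, and for 1232 of them (64.5%) the most used other acceptor of the event lay a multiple of 3 bases away. For the other 678 (35.5%) it did not, so that exchanging those 2 sites would shift the frame. In events with 2 sites the competitor is the first site and the share was 477 of 477 by construction, while it was 395 of 720 in events with 3 sites and 360 of 713 in events with 4 or more. Of the 1232 members with a frame-keeping competitor, 1018 added bases relative to it and 214 removed them. The median distance was 9 bases and the maximum 396, and 192 of these members lay 3 bases from the competitor. Each counted once, the frame-keeping pairs numbered 1032. Members are not independent of each other: 245 events held 2 or more of them, 500 members in all, whose PSI values come from the same reads. The fullest event, in the glycine-rich RNA-binding protein gene GRP7 (also named RBG7), held 7.

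**Figure D1:**
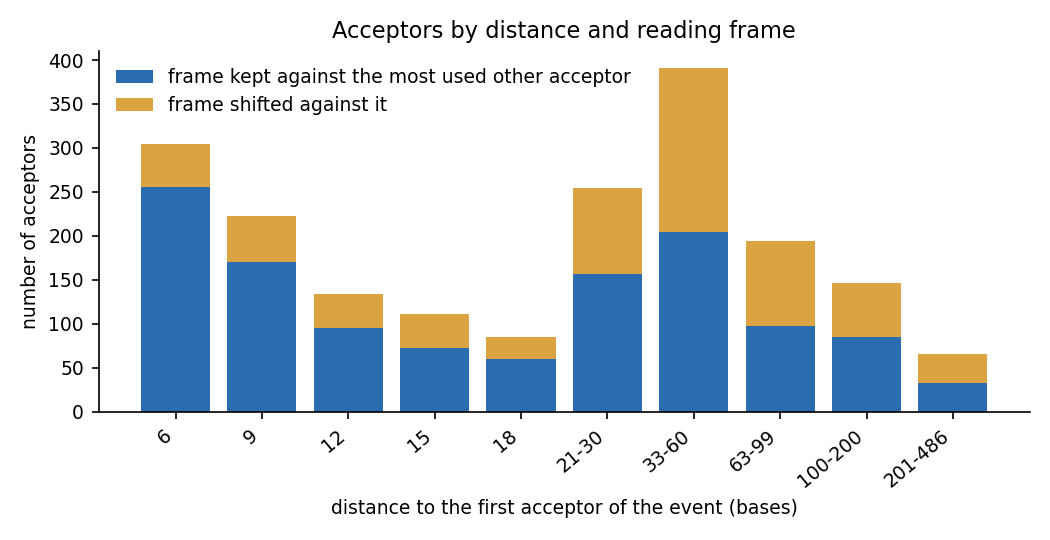
Number of member acceptors (vertical axis) by their distance from the first acceptor of the event in bases (horizontal axis, classes of unequal width), split by whether the most used other acceptor of the event keeps or shifts the frame. At 6 bases 256 members keep the frame and 49 shift it, while in the class of the longest distances the numbers are 33 and 33.

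Most of the acceptors lay in coding sequence. The intron and both sites of the pair fell within the annotated coding bounds of the gene for 1539 members (80.3%). They lay upstream of the bounds for 251 (13.1%), downstream for 54, across a bound for 39 and in genes with no coding sequence for 33. The intron ending at the member was annotated in RefSeq for 1303 (68.0%), and this share was 22.2% at a mean PSI under 10, 79.5% from 10 to 90 and 98.8% over 90. By use, 600 members had a mean PSI under 10, 672 from 10 to 90 and 644 over 90, and only 92 lay between 40 and 60. A deeply read event with balanced use was in LUH, which encodes a LEUNIG-like transcriptional corepressor. Its 21-base acceptor had a PSI of 55.7, 47.2 and 48.9 in sr34a-1 with ABA, 48.2, 51.8 and 53.4 in WT with ABA, 50.1, 54.1 and 55.7 in mock-treated sr34a-1 and 47.8, 52.6 and 49.0 in mock-treated WT, at 577 to 841 reads. The 4 groups overlapped, and the LUH stretch shows that this choice between sites 6 bases apart inserts or leaves out 6 coding bases.

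Forms whose coding stretch held an in-frame stop codon mostly had a low PSI, which is a share of the reads present. In 835 frame-keeping pairs within coding bounds, each counted once and read in the annotated frame, the stretch between the acceptors held a stop codon in 141 (16.9%). The longer form, which carries the stretch, had a median PSI of 5.82 in the pairs with a stop and 89.2 in those without. Stops stood in 94 of 219 stretches (42.9%) whose longer form had a PSI under 10, in 45 of 274 (16.4%) with a PSI from 10 to 90, and in 2 of 342 (0.585%) with a PSI over 90. Longer stretches have more room for a stop, but the order held for stretches over 30 bases, with 49 of 63 (77.8%, 95% Wilson interval 66.1 to 86.3%), 27 of 46 (58.7%, 44.3 to 71.7%) and 2 of 55 (3.64%, 1.00 to 12.3%). The frame comes from the annotation, which holds nearly all junctions over a PSI of 90, and an annotated coding stretch holds no stop by definition, so that these shares partly restate what was annotated. The HAB2 stretch is an unannotated example. HAB2 encodes a type 2C protein phosphatase that restrains ABA signalling, and its 48-base acceptor had a PSI of 15.8, 23.2 and 22.9 in sr34a-1 with ABA, 19.5, 21.8 and 23.4 in WT with ABA, 17.8, 19.8 and 22.5 in mock-treated sr34a-1 and 23.6, 22.4 and 18.3 in mock-treated WT. The groups overlapped, and about 1 in 5 reads of the event thus used a form with a stop in every group.

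**Figure D2:**
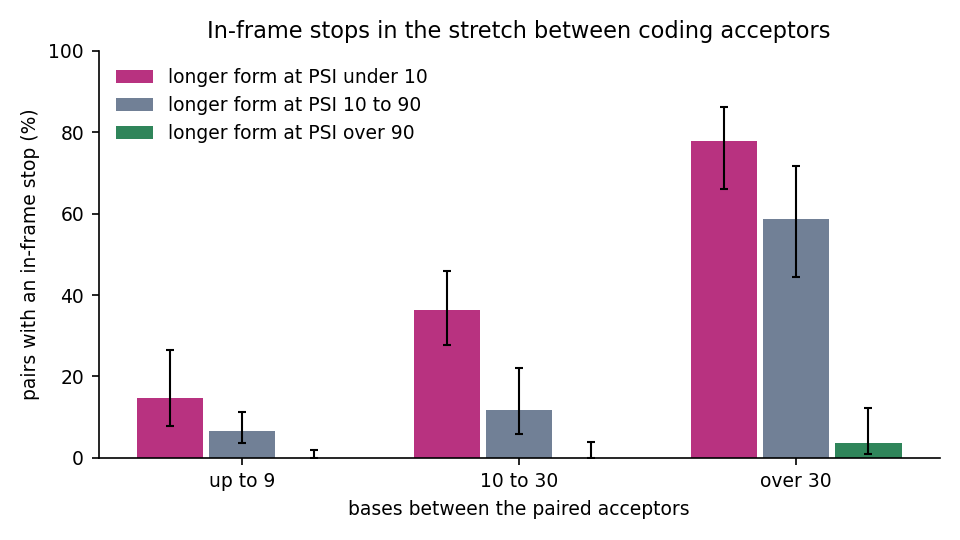
Percent of coding frame-keeping pairs whose stretch holds an in-frame stop codon (vertical axis) by distance between the acceptors in bases (horizontal axis) and by the mean PSI of the longer form. Bars are percentages of pairs with 95% Wilson intervals, which cover counting error only. At over 30 bases the bars stand at 77.8%, 58.7% and 3.64% for a PSI under 10, from 10 to 90 and over 90.

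The acceptor score followed use, and the share of CAG did so only in part. Every member and every competitor ended in AG in TAIR10.1. CAG stood at 37.7% of members with a mean PSI under 10, 40.2% from 10 to 90 and 51.9% over 90, and AAG at 24.4%, 22.1% and 11.4%. Among their competitors CAG stood at 58.9%, 57.4% and 55.5%, and AAG at 9.02%, 14.1% and 20.4%. Members with a PSI over 90 thus had CAG less often than their less used competitors. Among 115163 introns of the deposited table, of which 99.9% ended in AG, CAG ended 64.2% and AAG 6.78%. A score of the last 20 intron and first 3 exon bases, summed in bits from the base frequencies at those introns' ends, had medians of 3.65, 4.57 and 6.11 for members in the 3 classes of use, against 6.27, 5.58 and 4.83 for their competitors. For 1249 of 1910 members set against their competitors (65.4%, 95% Wilson interval 63.2 to 67.5%), the more used site had the higher score. For 1074 (56.2%) the more used site was the upstream one. Repeated pairs were not removed here: the competitor was itself a member for 417 of the 1232 members with a frame-keeping competitor. The same pair can thus enter from either of its sites, and the interval, which treats members as independent, is a description only. Across members, which share events and base composition, Spearman's rho between the score difference and mean PSI was 0.41 (n = 1910), a description without a test. Of 10 equal classes of members by score difference, the lowest had a median PSI of 7.80 and the highest 94.2.

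**Figure D3:**
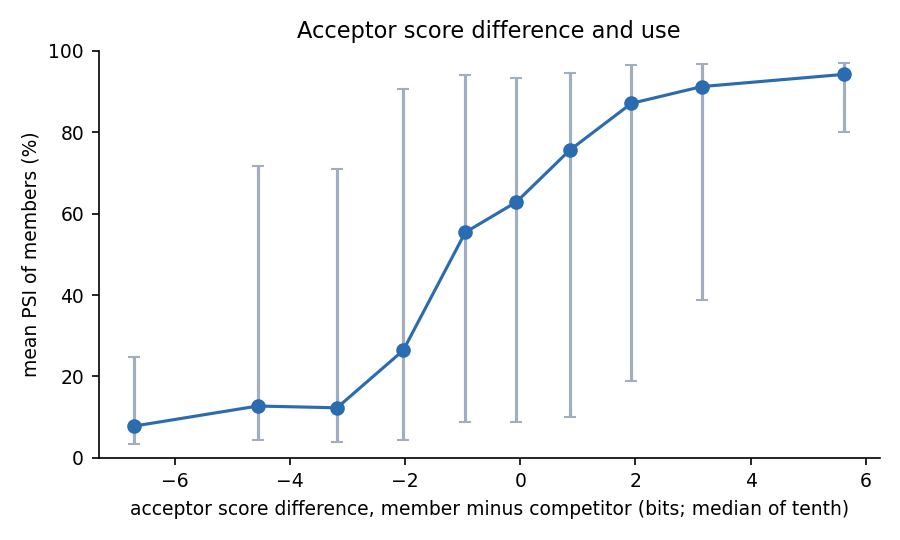
Median mean PSI of members (vertical axis, percent) against the median acceptor score difference, member minus its most used competitor (horizontal axis, bits), in 10 classes of 191 members each. Bars span the quartiles of PSI. The median climbs from 7.80 in the lowest class to 94.2 in the highest, and the quartiles in the middle classes span most of the PSI range.

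Single pairs printed above differed in this respect. In TTL the upstream site ends in AAG with a score of 2.65 and the downstream one in CAG with 7.98, and the downstream site was the more used. In SR45 the upstream site scored only 1.06 against 5.70, yet it took most of the reads. In LUH the scores were 1.89 upstream and 7.49 downstream at nearly equal use.

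Between the genotypes few of the acceptors changed, at shares near those of all splicing events. Differences were tested with limma, as log2 of inclusion over exclusion reads, in a fit to all 28000 events tested, and an event was called at a Benjamini-Hochberg adjusted p under 0.05. With ABA, 13 members were called in sr34a-1 against WT, which is 0.678% of members against 0.793% of all events, with 6 higher against 0.454% of all events higher and 7 lower against 0.339% lower. Without hormone 15 were called, or 0.783% against 0.529%, with 7 higher against 0.239% and 8 lower against 0.289%. Averaged over both treatments 41 were called in 38 genes, or 2.14% against 2.19%, with 18 higher against 1.31% and 23 lower against 0.886%. Over all events 366 were higher and 248 lower in the average. Lower calls thus outnumbered higher ones among members and the reverse held over all events, which was not tested. Frame-shifting acceptors were called at 2.13% in the average, acceptors 3 bases from the first site at 0.452% and alternative exons at 14.2%, and none of these class differences was tested. The median absolute PSI difference in the average was 1.51 among members and 1.22 among all events. The choice of variance model matters: with a prior variance that follows the mean log2 ratio instead of the sampling variance, 2, 2 and 11 members were called with ABA, without it and in the average. The single-treatment calls that held were those of AT2G40630 and AT5G43403 with ABA and of RBL6 and the 267-base site of ATHB-12 without it. The calls in the average that held were those of ECT4, AFC1, SR34A, TULP2, RBL6, AT2G40630, AT2G12170, AT3G19780, both sites of TTL and the 126-base site of AT2G14045. Every other call named below was lost under that setting. The p-values measure the spread between 3 libraries per group.

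All 41 members called in the average had the same sign in both treatments. Choosing members by the average favours this, so that the shared sign is a description only. Of the 41, 5 were called in each treatment on its own: both sites of TTL and the sites of AFC1, TULP2 and SR34A. These 5 are 38.5% of the calls with ABA and 33.3% of those without, and none of them was called in a single treatment with the prior variance by mean log2 ratio. Of the 41, 12 differed by 10 PSI points or more and 14 by less than 5. They lay farther from the first site than members at large, with a median of 63 against 24 bases, and were read more deeply, with a median lowest-library read number of 232 against 82, and the part of read depth in the calls was not tested. The competitor kept the frame for 24. These make up 21 pairs, in which the longer form was lower in sr34a-1 in 15 and higher in 6. Over all 1032 frame-keeping pairs the longer form was higher in 49.0%, with a median difference of -0.03 PSI points.

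**Figure D4:**
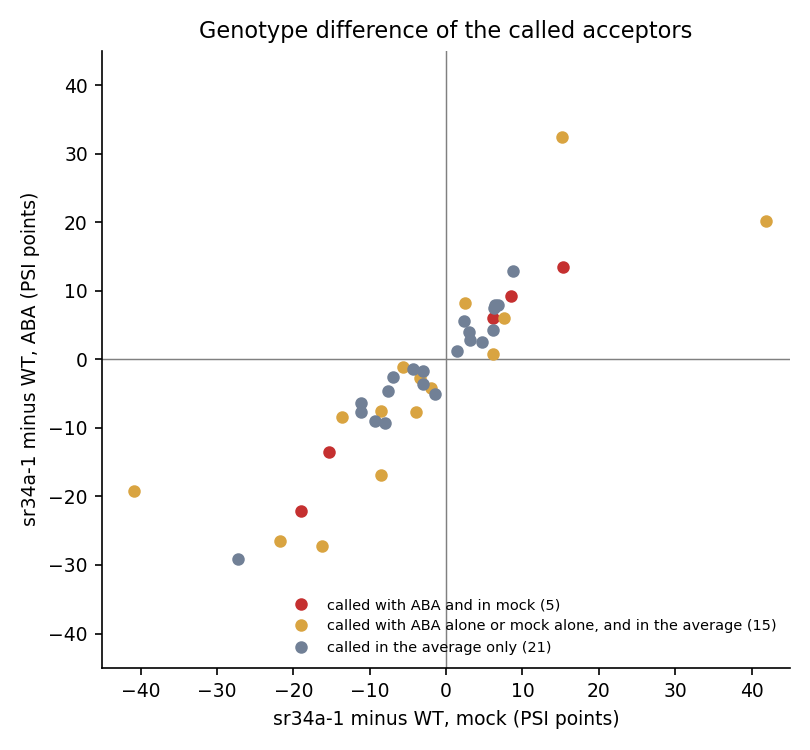
PSI difference, sr34a-1 minus WT, in percentage points, without hormone (horizontal axis) and with ABA (vertical axis), for the 41 members called in the average over treatments. Each point is a member, and colour gives whether it was called in both treatments (5), in 1 treatment and the average (15) or in the average alone (21). All 41 points lie at the lower left or the upper right, where both differences have the same sign, which choosing members by the average favours.

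Genes for RNA-binding proteins and an SR protein kinase were among those with a called frame-keeping pair. ECT4 encodes a YTH-domain protein of the family that reads N6-methyladenosine in RNA. Its 39-base acceptor (chr1, 20720570, plus strand) had a PSI of 35.2, 42.0 and 34.9 in sr34a-1 against 59.0, 73.5 and 61.5 in WT with ABA. Without hormone it had 50.5, 40 and 43.1 in sr34a-1 against 58.7, 59.5 and 64.2 in WT, at 188 to 305 reads. All 6 mutant libraries lay below all 6 WT libraries. The fall was 27.3 PSI points with ABA (log2 ratio -1.63, SE 0.24, limma adjusted p = 0.000103) and 21.8 points in the average (adjusted p = 6.61e-06). With the prior variance by mean log2 ratio the call with ABA was lost and that in the average held. The stretch printed above holds no stop in the annotated frame.

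AFC1 encodes a LAMMER-type kinase that phosphorylates SR proteins. Its 39-base acceptor (chr3, 19864153, minus strand), whose intron and stretch together cross a coding bound, had a PSI of 59.0, 68.4 and 60.8 in sr34a-1 against 83.5, 86.1 and 84.8 in WT with ABA. Without hormone the values were 73.9, 58.2 and 68.3 in sr34a-1 against 87.4, 85.9 and 84.3 in WT, at 69 to 128 reads. The genotypes did not overlap, and PSI fell by 22.1 points with ABA (limma adjusted p = 0.0097) and by 19.0 points without (adjusted p = 0.0266). Both of these calls were lost with the prior variance by mean log2 ratio, while the call in the average (adjusted p = 8.02e-05) held. AFC1 RNA itself was higher in sr34a-1 by a log2 fold change of 0.22 in the average (edgeR adjusted p = 0.000275).

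SR45 encodes an SR-like factor known to be made in isoforms that arise from an alternative acceptor. Its 21-base acceptor (chr1, 5677376, minus strand) had a PSI of 68.6, 75.3 and 76.4 in sr34a-1 against 80.9, 81.9 and 80.0 in WT with ABA. Without hormone the values were 71.4, 75.7 and 72.1 in sr34a-1 against 83.0, 79.2 and 82.5 in WT, at 715 to 1027 reads. The genotypes did not overlap, and the form with the 21 bases fell by 8.49 points without hormone (log2 ratio -0.71, SE 0.16, limma adjusted p = 0.0264) and fell by 7.99 points in the average (adjusted p = 0.000375). Neither SR45 call held with the prior variance by mean log2 ratio.

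BTR1, which encodes a KH-domain protein that binds viral RNA, moved the other way. Its 63-base acceptor (chr5, 1251564, minus strand) had a PSI of 34.5, 33.02 and 32.95 in sr34a-1 against 26.7, 28.5 and 27.1 in WT with ABA. Without hormone it had 35.4, 39.1 and 35.4 in sr34a-1 against 28.8, 27.9 and 30.3 in WT. These were the deepest reads of any member named here, 1504 to 2082, and the genotypes did not overlap. PSI rose by 7.62 points without hormone (limma adjusted p = 0.0156) and by 6.85 in the average (adjusted p = 0.000231), again not called with the prior variance by mean log2 ratio.

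TTL encodes a transthyretin-like protein of allantoin synthesis, whose splice forms are known to differ in peroxisomal targeting. Its event has 2 members 39 bases apart that take reads from each other. The longer form (acceptor at chr5, 23554979, minus strand) had a PSI of 24.5, 23.4 and 30.3 in sr34a-1 against 36.0, 40.8 and 42.0 in WT with ABA. Without hormone it had 27.8, 24.5 and 23.7 in sr34a-1 against 44.7, 35.9 and 41.3 in WT, at 431 to 655 reads. The genotypes did not overlap, and the longer form fell by 13.5 points with ABA (limma adjusted p = 0.00605), by 15.3 points without (adjusted p = 0.00178) and by 14.4 in the average (log2 ratio -0.95, SE 0.13, adjusted p = 7.2e-06). The shorter form rose by the same amounts, and for both forms the calls in single treatments were lost with the prior variance by mean log2 ratio and the call in the average held. TTL RNA did not pass the edgeR test, with a log2 fold change of 0.04 in the average (adjusted p = 0.441).

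**Figure D5:**
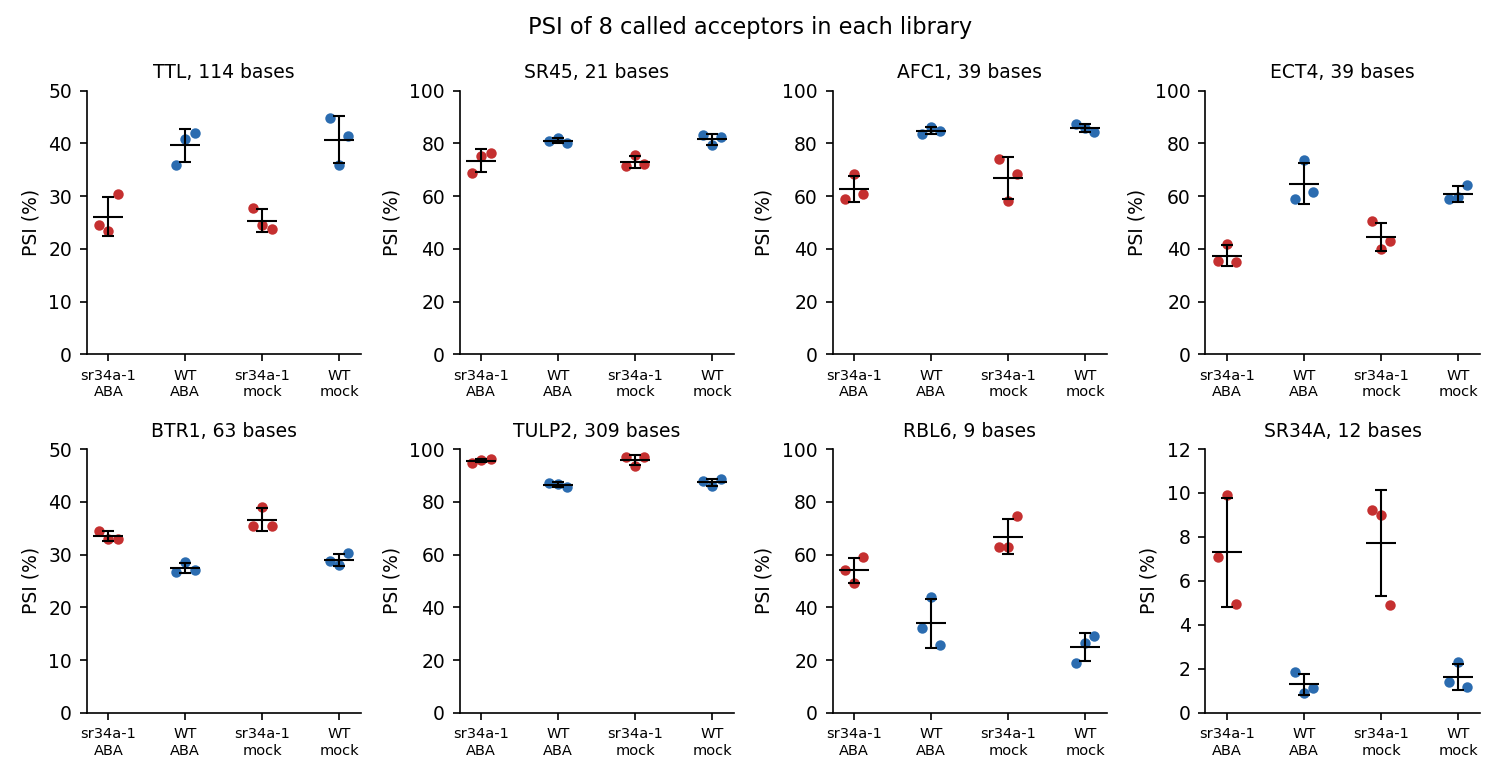
PSI in percent (vertical axes, with scales that differ between panels) of 8 member acceptors in each of the 12 libraries, grouped on the horizontal axis as sr34a-1 with ABA, WT with ABA, sr34a-1 mock and WT mock. Points are libraries and bars show the mean ± SD (n = 3). In ECT4 all sr34a-1 libraries lie at 50.5 or below and all WT libraries at 58.7 or above, and in SR34A all sr34a-1 libraries lie at 4.92 or above and all WT libraries at 2.29 or below.

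SR34A, the mutated gene, held a member of its own, an unannotated acceptor 12 bases upstream of the first site (chr3, 18333918, plus strand), and the stretch printed above holds an in-frame stop. Its PSI was 7.07, 9.90 and 4.96 in sr34a-1 against 1.85, 0.92 and 1.12 in WT with ABA. Without hormone it was 9.24, 9.01 and 4.92 in sr34a-1 against 1.38, 2.29 and 1.18 in WT. The genotypes did not overlap, and PSI rose by 6.01 points with ABA (log2 ratio 2.56, SE 0.49, limma adjusted p = 0.00371) and by 6.11 without (adjusted p = 0.0121). Both calls were lost with the prior variance by mean log2 ratio, and the call in the average (adjusted p = 2.19e-05) held. The event had 99 to 611 reads while SR34A RNA fell by 2.88 on the log2 scale with ABA and fell by 2.86 without (edgeR), so that a PSI of a few percent in sr34a-1 rests on few reads of the site.

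Other genes of RNA processing held called members too, and none of these calls held with the prior variance by mean log2 ratio. SF1, the branch point binding protein, had a 105-base acceptor downstream of its coding bounds that fell by 4.20 points with ABA (adjusted p = 0.0159) and by 3.12 in the average (adjusted p = 0.00695), and its genotypes did not overlap. The DEAD-box RNA helicase gene RH11 had a 291-base acceptor at 0.79, 0.91 and 0.87 in sr34a-1 against 1.53, 3.15 and 6.27 in WT with ABA, and at 0.29, 0.95 and 1.20 in sr34a-1 against 5.44, 3.84 and 3.55 in WT without it. It fell by 3.46 points without hormone (adjusted p = 0.0129). PAPS4, a nuclear poly(A) polymerase, had a 36-base stretch with an in-frame stop that fell by 8.74 points in the average (adjusted p = 0.0341), though its genotypes overlapped and the call held in 3 of 12 fits that each left out 1 library.

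Not all the large shifts were exchanges of codons. TULP2, a Tubby-like protein gene, had a 309-base acceptor upstream of its coding bounds (chr2, 7946721, plus strand) whose competitor lay 32 bases away. Its PSI was 94.8, 95.9 and 96.1 in sr34a-1 against 87.2, 86.7 and 85.4 in WT with ABA, and 96.8, 93.7 and 97.1 in sr34a-1 against 87.8, 85.9 and 88.6 in WT without it. The genotypes did not overlap, and the rise of 8.80 points in the average had the smallest adjusted p of any member (7.2e-09, limma). AT2G14045, annotated as a c-Myc-binding protein, had a 126-base acceptor upstream of its coding bounds at 77.2, 78.2 and 76.6 in sr34a-1 against 93.1, 96.5 and 93.0 in WT with ABA, a fall of 16.9 points (adjusted p = 0.000674) whose call was lost with the prior variance by mean log2 ratio. Without hormone it stood at 83.1, 84.5 and 78.6 in sr34a-1 against 88.8, 91.1 and 91.7 in WT (adjusted p = 0.384). The genotypes did not overlap in either treatment.

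Some of the large differences came from events with few reads. RBL6, a rhomboid-like protein gene, had a 9-base acceptor upstream of its coding bounds, 253 bases from its competitor, that rose by 41.9 points without hormone (limma adjusted p = 0.0017) at 27 to 57 reads. In AT2G40630, an uncharacterized conserved protein gene, a 12-base acceptor with a competitor 52 bases away rose by 32.4 points with ABA (adjusted p = 0.000311) at 34 to 79 reads. AT2G12170 had a 36-base acceptor that fell by 40.9 points without hormone (adjusted p = 0.0264) at 15 to 41 reads. In AT3G19780 a 288-base acceptor had a PSI of 40, 20.8 and 26.1 in sr34a-1 against 45.9, 63.4 and 57.0 in WT with ABA, a fall of 26.4 points (adjusted p = 0.0273) at 47 to 111 reads. AT3G19780 RNA was lower as well, by 0.40 on the log2 scale in the average (edgeR adjusted p = 7.5e-06). All 4 of these genes had no overlap between the genotypes, and all 4 were called in the average with the prior variance by mean log2 ratio. Under that setting the call of AT2G12170 without hormone and that of AT3G19780 with ABA were lost, and those given here for RBL6 and AT2G40630 held. The median within-group SD of members was 6.43 PSI points where the lowest library had 10 to 30 reads and 1.24 points where it had over 300.

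AT4G26650, an RNA-binding protein gene, held a pair of acceptors 33 bases apart, at 57 and 90 bases, whose stretch holds an in-frame stop. The longer form had a PSI of 4.11, 3.90 and 4.07 in sr34a-1 against 5.49, 4.81 and 5.27 in WT with ABA (limma adjusted p = 0.745). Without hormone it had 1.28, 2.97 and 1.39 in sr34a-1 against 7.87, 8.64 and 5.89 in WT. It fell by 5.59 points without hormone (adjusted p = 0.000291), and the shorter form rose by 6.09 points (adjusted p = 7.7e-05). Both calls were lost with the prior variance by mean log2 ratio.

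Called members of other functions mostly overlapped between the genotypes. ATHB-12, a homeodomain-leucine zipper transcription factor gene, held 2 members 6 bases apart that take each other's reads. Its 267-base site had a PSI of 2.83, 6.06 and 6.25 in mock-treated sr34a-1 against 0 in all 3 mock-treated WT libraries (limma adjusted p = 0.0233), while with ABA it had 3.14, 2.67 and 1.83 in sr34a-1 against 4, 2.27 and 4.65 in WT. The difference was thus seen without hormone and the groups overlapped with it, and the call held in 7 of 12 fits that each left out 1 library. The event had 64 to 524 reads, so that a PSI of a few percent can rest on few reads of the site. In the average, the 105-base form of CW7 rose by 10.8 points (adjusted p = 0.0153) with no overlap between the genotypes. The 90-base form of PHR1, a DNA photolyase gene, rose by 3.94 points (adjusted p = 0.0256). The 81-base form of BGLU11, of the beta-glucosidase family, fell by 5.84 points (adjusted p = 0.011). This form was also called with ABA, at 4.13, 5.72 and 3.23 in sr34a-1 against 10.25, 14.69 and 11.2 in WT. The call with ABA was lost with the prior variance by mean log2 ratio. The 102-base acceptor of MTM1, a myotubularin-like gene, fell by 9.40 points (adjusted p = 0.0324), and in these last 3 genes the genotypes overlapped. Among non-coding RNA genes, a 36-base acceptor of AT2G36792 fell by 28.2 points in the average (adjusted p = 0.00153). A 54-base acceptor of AT1G34418 fell by 11.02 points in the average (adjusted p = 0.00278), and both had overlap between the genotypes.

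With ABA against mock, no member was called, but without the filter on mean PSI, which changes the fit and not the members, 5 were called in sr34a-1, 6 in WT and 9 in the average. In sr34a-1 limma called 0 members against 0.0286% of all events (151 members at an unadjusted p under 0.05, smallest adjusted p 0.224), in WT 0 against 0.0179% (138 members, smallest adjusted p 0.409) and in the average 0 against 0.075% (135 members, smallest adjusted p 0.294). The interaction of genotype and treatment gave 0 members against 0.0% of all events (131 members, smallest adjusted p 0.692). At the unadjusted limit the shares were 7.88% of members against 6.19% of all events in sr34a-1 and 7.20% against 5.77% in WT. They were 7.05% against 7.06% in the average and 6.84% against 4.74% for the interaction, and these differences were not tested. A rule without p, under which group means differ by 15 PSI points or more and the groups are separated by 5 or more, held for 5 members in sr34a-1 (0.282% of all events) and 6 in WT (0.261%). By the same rule, sr34a-1 against WT gave 10 members with ABA (0.586% of all events) and 14 without (0.571%). The members of the ABA comparisons, named after their values were seen, include CBL10, a calcium sensor gene, with a 45-base acceptor higher by 17.5 points with ABA in sr34a-1 (limma adjusted p = 0.721, 10 to 45 reads). In WT they include CLSY1, a chromatin remodelling gene of RNA-directed DNA methylation, with a 6-base acceptor lower by 17.6 points (adjusted p = 0.554, 25 to 81 reads).

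The RNA levels of the genes that hold members were tested with edgeR for all 1511. The read minimum favours genes with more RNA, so that these genes are not a sample of all genes, and the part of RNA level in the shares was not tested. Between sr34a-1 and WT 405 differed with ABA (26.8% against 22.1% of all genes), 264 without (17.5% against 16.4%) and 583 in the average (38.6% against 33.9%), 317 higher against 17.9% of all genes and 266 lower against 16.0%. With ABA against mock 565 differed in sr34a-1 (37.4% against 40.1%), 517 in WT (34.2% against 35.1%) and 744 in the average (49.2% against 51.2%). The interaction gave 0 (against 0.0%). Of the 38 genes with a member called in the average, 18 differed in RNA level, 8 higher and 10 lower, and SR34A alone did so by a log2 fold change of 1 or more. Reads were counted without a stated strand, so that genes that overlap another have uncertain values.

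Among 20 SR and SR-like splicing factor genes, 9 were higher and 3 lower in sr34a-1 in the average (edgeR), where 17.9% of all genes were higher and 16.0% lower. The 3 lower were SR34A itself, SCL33 and RS31A, and 6 of the genes held 7 members, of which SR34A's and SR45's were called. SR30 rose by 0.53 (adjusted p = 3.85e-08), RSZ22A by 0.39 (adjusted p = 5.09e-06) and SR34 by 0.25 (adjusted p = 8.85e-06) on the log2 scale, while SCL33 fell by 0.26 (adjusted p = 0.0023). The members of SR34 (9 bases, mean PSI 21.6), SR45A (15 bases, 91.9), SR34B (378 bases, 23.9) and SCL33 (108 and 111 bases, 71.9 and 17.0) did not pass the limma test in any comparison. With ABA against mock 6 of the 20 were higher and 0 lower, where 24.7% of all genes were higher and 26.4% lower.

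Among 12 genes of 3′ splice site recognition and the later splicing step, 4 were higher and 0 lower in sr34a-1 in the average, against 17.9% and 16.0% of all genes. These were SF3B1, PRP16, U2AF35B and U2AF65A, with log2 fold changes from 0.09 to 0.19. Of their 2 members the one in SF1 was called and the one in U2AF65A was not. The 207-base acceptor of U2AF65A, whose product binds the pyrimidine stretch, had a PSI of 38.98, 42.4 and 48.9 in sr34a-1 against 35.4, 37.9 and 46.8 in WT with ABA. Without hormone it had 44.3, 35.9 and 40.9 in sr34a-1 against 39.5, 43.8 and 39.6 in WT, and the groups overlapped. With ABA against mock 4 of the 12 were higher and 0 lower, against 24.7% and 26.4% of all genes.

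Among 28 genes of ABA perception and signalling 11 were higher and 1 lower in sr34a-1 in the average, against 17.9% and 16.0% of all genes, and with ABA against mock 19 were higher and 7 lower, where 24.7% of all genes were higher and 26.4% lower. HAB2 held their only member, and its RNA rose by 0.90 on the log2 scale with ABA (edgeR adjusted p = 1.25e-11) while the PSI of its 48-base form did not pass the limma test (difference 0.38 points in the average, adjusted p = 0.994). Among 11 other RNA-binding and nonsense-mediated decay genes 4 were higher and 0 lower in sr34a-1, against 17.9% and 16.0% of all genes, and 2 were higher and 3 lower with ABA against mock, against 24.7% and 26.4%. The 7 members in GRP7 and the 1 in UPF3, a nonsense-mediated decay factor, did not pass the limma test in any comparison.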

How the data were processed

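Polyadenylated RNA of 12 libraries was measured, 3 for each combination of genotype and treatment. The authors deposited, per the file headers, a vast-tools table with a percent (PSI) per splicing event and library and a quality string, a text value of another kind that ends in inclusion and exclusion reads, and they deposited raw gene counts with RPKM values. The RPKM values were not used. Build TAIR10 is given in the submitters' processing notes, and the aligner and the strand setting are not given in the sources used here. PSI recomputed from the reads differed from the deposited PSI by at most 0.0418.

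Events with at least 10 reads in every library and a mean PSI of 2 to 98 were tested with limma 3.58.1 in R 4.3.3 on log2((inclusion + 0.5)/(exclusion + 0.5)), with 4 group means over 12 libraries, a prior variance that follows the sampling variance, and Benjamini-Hochberg adjustment over 28000 events. Deposited gene counts were tested with edgeR 4.0.16 (quasi-likelihood test, TMM, filterByExpr, 21256 genes), with DESeq2 1.42.0 as an alternative. Both tests were tried on simulated data. For limma, the simulated shifts in log2 ratio were larger than any printed here and were placed in events of intermediate PSI only. The trial thus does not show how smaller shifts, or shifts at low or high PSI, are called. Sequences came from RefSeq TAIR10.1, in which 99.9% of 115163 deposited introns end in AG. The planned sequence comparison was with the first acceptor of the event; the most used other acceptor took its place, since it is the site that competes for the reads. The genes named come from the members called (up to 10 in each direction per contrast), the members of the gene lists, and the longest, the most balanced and the threshold members. A result on 1 listed gene is not reported here. The members and lists were chosen with earlier results of these data known.

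In the gene counts, samples of sr34a-1 and WT with the same replicate number deviated together, with correlations of 0.148, 0.137 and 0.100 with ABA and 0.315, 0.117 and 0.134 without. The pairing comes from these correlations, not from a label. Alternatives are given in the closing section. Wilson intervals have a 95% level and cover counting error only.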

Additional observations from a re-analysis of the deposited data

Results flagged for a closer look

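In 3 genes the ABA response pointed one way in every sr34a-1 library and the other way in every WT library, and in each the limma test of the interaction did not pass. The 57-base acceptor of AT4G26650 had a PSI difference, ABA minus mock, of -2.67 points in sr34a-1 and 2.67 points in WT, a difference of responses of -5.34 points (adjusted p = 0.692). The 90-base acceptor of the same event, which shares its reads, had a difference of 4.42 points (adjusted p = 0.979). The 126-base acceptor of AT2G14045 had a difference of -8.43 points (adjusted p = 0.979). The 189-base acceptor of AT5G43403, a non-coding RNA gene with 13 to 37 reads, had differences of 16.5 points in sr34a-1 and -11.8 points in WT, a difference of responses of 28.3 points (adjusted p = 0.979).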

How the results depend on the processing

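With the prior variance by mean log2 ratio, limma called 2 members with ABA, 2 without and 11 in the average (5 higher and 6 lower) in place of 13, 15 and 41. A pseudocount of 1, at least 20 reads, a mean PSI of 5 to 95, no filter on mean PSI, fits to the 6 libraries compared and the range rule gave 10 to 13 members with ABA and 10 to 18 without. Similar totals did not always mean the same members. Of the range rule's 10 members with ABA, 6 were among the main calls, and of its 14 without hormone 5 were. For ABA against mock, no filter on mean PSI gave 5 members in sr34a-1, 6 in WT and 9 in the average in place of 0, and the range rule gave 5 in sr34a-1 and 6 in WT. The cause of these changes was not tested. Leaving out 1 library at a time gave 9 to 13 members with ABA, 8 to 18 without and 31 to 43 in the average between the genotypes, and 0 to 1 in the average ABA comparison. The count without hormone was 8 without WT mock replicate 1 or 3 and 9 without sr34a-1 mock replicate 2 or 3, and the average ABA count was 1 without WT mock replicate 1. Genes holding members gave 254 to 409 calls with ABA, 138 to 287 without and 489 to 568 in the average between the genotypes. The low values were 254 without sr34a-1 ABA replicate 3, 258 without WT ABA replicate 2, 138 without sr34a-1 mock replicate 1, 153 without WT mock replicate 2 and 165 without WT mock replicate 3. The ABA comparisons gave 474 to 573 in sr34a-1, 412 to 520 in WT and 687 to 728 in the average. The gene interaction count of 0 became 6 with the replicate block and 4 with DESeq2.

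Same-numbered libraries did not deviate together in splicing (correlations of -0.004 to 0.026), so the samples share only a number there. The replicate block gave 13 members with ABA, 16 without and 46 in the average, and 515, 390 and 667 genes. It changed no call of a gene named here. With few reads, as at 10 to 30 in the lowest library, differences within several PSI points were not detectable.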
